A study of Cavia porcellus with 24 samples.

Results

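At 294 CpGs of the guinea pig genome, methylation measured on the 2 DNA strands differed strongly, in the same direction, in hippocampus and in whole blood and in both exposure groups. These CpGs were chosen by their strand values: both cytosines of the CpG (the plus strand at a position, the minus strand at the next base) were listed in both tissue tables, each had at least 30 reads in all 4 pools, and plus-strand less minus-strand methylation was at least 40 percentage points in size with the same sign in every pool. They made up 0.0692% of the 424936 CpGs that met the read minimum, out of 506034 CpGs listed on both strands in both tissues. In what follows, the less methylated cytosine of each of the 294 CpGs is called the lower strand and the more methylated one the higher strand, and the 424936 CpGs are called the covered CpGs.

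Cytosine methylation in mammals lies mostly at CpG dinucleotides, whose sequence reads the same on both strands. When DNA is copied, the maintenance methyltransferase DNMT1, recruited by UHRF1 to CpGs that carry a methyl group on the parental strand only, methylates the new strand, so that the 2 cytosines of a CpG usually carry the same state. In reduced representation bisulfite sequencing (RRBS), DNA is cut at MspI sites and treated with bisulfite, which turns unmethylated cytosine into a base read as thymine. The reads of the plus and of the minus strand come from different molecules and are counted apart, and a thymine that is present in the DNA itself is read like an unmethylated cytosine.

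Hippocampus and whole blood were taken at postnatal day 14 from the same 12 female Hartley guinea pigs, 1 per litter, which gave 24 samples in 4 groups of 6. The mothers of the sGC group were injected with betamethasone, a synthetic glucocorticoid (a phosphate-acetate mix, 1 mg/kg), in 3 courses (gestational days 40 with 41, 50 with 51 and 60 with 61), and the mothers of the control group (Con) received saline. The tables hold 1 sum of reads over the 6 animals of each group, so that each value below is that of 1 pool of animals, the spread between animals is not known, and batch or animal could not enter a test. Both tissues are mixtures of cell types, and whole blood and hippocampus came from the same animals, so the tissue pools of 1 exposure group share their genomes whereas the exposure pools do not. The tables listed 2869370 cytosines in hippocampus and 2927801 in blood, with 2564116 in both. A listed cytosine had a median of 93 reads in the hippocampus sGC pool, 86 in the hippocampus Con pool, 98 in the blood sGC pool and 79 in the blood Con pool. Positions are those of the authors' tables on scaffolds of the build cavPor3, and genes, motifs and sequence around the CpGs were not analysed here.

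Strand differences of this size were rare. The strand difference averaged over the 4 pools had a median size of 1.32 points over the covered CpGs, and 98.2% of them lay under 10 points. Among the 294 CpGs, the median of the mean difference was 59.5 points and the median of the smallest of the 4 pools was 52.1 points, which follows from how they were chosen. The difference of a CpG varied between its 4 pools by a median of 10.5 points (highest less lowest pool), with a range from 0.563 to 47.3. The minus strand was the higher one at 178 CpGs (60.5%) and the plus strand at 116. In covered CpGs past smaller limits in all 4 pools, the share with a higher minus strand was 53.6% of 2590 CpGs past 10 points, 56.2% of 893 past 20 points and 59.5% of 454 past 30 points. At a limit of 50 points it was 53.8% of 156 CpGs, so that the share did not rise steadily with the size of the difference.

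**Figure D1:**
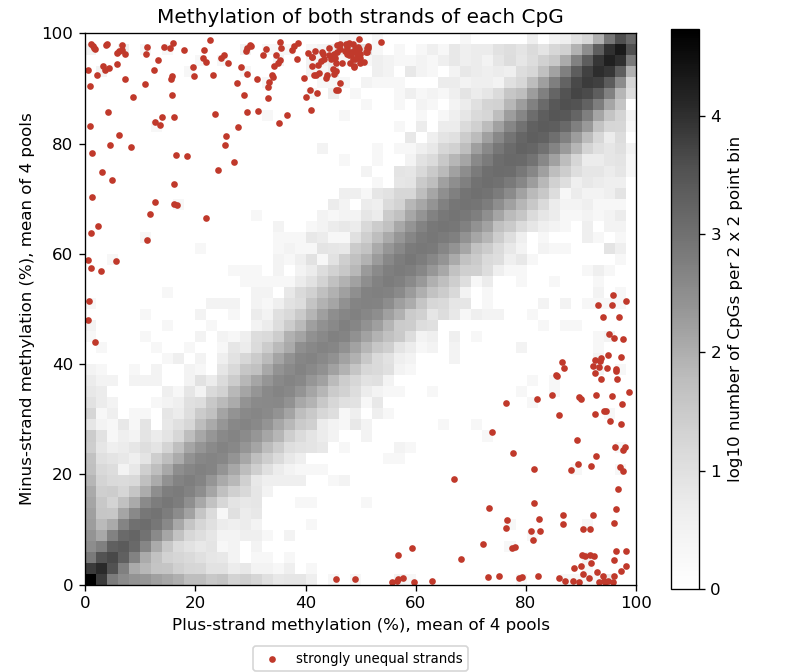
Minus-strand methylation (%, mean of 4 pools) against plus-strand methylation (%, mean of 4 pools) for the covered CpGs, shaded by the log10 number of CpGs per bin, with the 294 CpGs as red points. The covered CpGs lie along the diagonal, while the red points form a band at the top left (178 CpGs, minus strand higher) and another at the bottom right (116 CpGs, plus strand higher), with many points near 50% on the lower strand and near 100% on the higher strand.

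At most of the 294 CpGs the higher strand was close to fully methylated, whereas the lower strand took many levels. On the higher strand, the median level was 93.0% in the hippocampus sGC pool, 92.5% in the hippocampus Con pool, 94.4% in the blood sGC pool and 94.1% in the blood Con pool. These medians lay above those of all covered cytosines, which were 71.2%, 69.2%, 84.8% and 82.6% in the same order. The choice of CpGs favours this, since the higher strand had to lie at least 40 points above its partner in every pool. The same limit keeps the lower strand at 60% or less. Averaged over pools, the higher strand was at 95% or more at 111 CpGs, from 90% to 95% at 81, from 80% to 90% at 50, from 60% to 80% at 36 and from 40% to 60% at 16. On the lower strand, the median level was 24.03%, 25.91%, 24.04% and 25.99% in the same order of pools, with lower quartiles between 5.61% and 7.21% and upper quartiles between 41.3% and 42.7%. The sGC pools had the lower medians in both tissues, but CpG by CpG the median sGC less Con difference on the lower strand was -0.0903 points in hippocampus and -0.400 in blood.

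The lower-strand levels were most frequent under 10% and from 40% to 50%, and few lay just under the limit of 60%. They were under 5% at 61 CpGs and from 5% to 10% at 25, then from 10% to 20% at 40, from 20% to 30% at 38, from 30% to 40% at 47, from 40% to 50% at 72 and from 50% to 60% at 11. For description, the CpGs were divided by this level at 10% and 30%, limits set after the values were seen. In the 86 CpGs with a lower strand under 10%, the minus strand was higher at 38 and the higher strand had a median of 88.5%. In the 78 CpGs from 10% to 30%, the minus strand was higher at 49 and the higher strand had a median of 91.3%. In the 130 CpGs at 30% or more, the minus strand was higher at 91 and the higher strand had a median of 95.3%. The surplus of CpGs with a higher minus strand therefore lay in the groups with intermediate lower-strand levels, and the group under 10% held more CpGs with a higher plus strand.

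**Figure D2:**
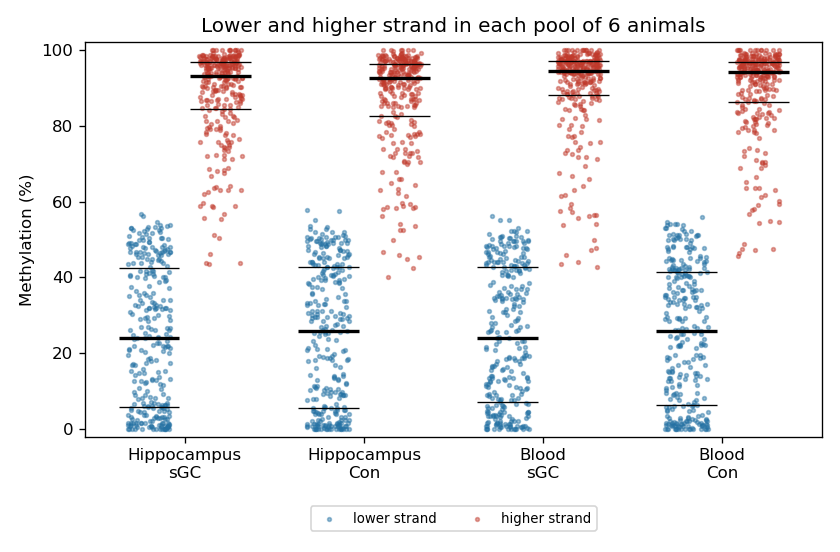
Methylation (%) of the lower strand (blue) and of the higher strand (red) of the 294 CpGs in each pool of 6 animals, with 1 point per CpG, a thick line at the median and thin lines at the quartiles. The lower strand spreads from 0 to just under 60% with medians from 24.03% to 25.99%, and the higher strand sits mostly above 80% with medians from 92.5% to 94.4%.

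Some CpGs were read as almost unmethylated on 1 strand and almost fully methylated on the other. The 4 CpGs of each direction whose smallest strand difference was largest are described here. At DS562865.1 position 4988399, the plus strand was at 0.649% of 154 reads in the hippocampus sGC pool, 0 of 131 reads in the hippocampus Con pool (a count that allows up to 2.29%), 3.38% of 148 reads in the blood sGC pool and 2.06% of 97 reads in the blood Con pool. The minus strand of the same CpG was at 95.7%, 98.0%, 98.9% and 98.5% in that order, on 67 to 99 reads. The smallest strand difference there was 95.003 points, the largest of the 294. At DS562859.1 position 23368411, the strands were the other way round, with the plus strand at 97.7%, 97.8%, 97.1% and 100% on 34 to 46 reads and the minus strand at 1.56%, 4.84%, 3.39% and 3.39% on 59 to 64 reads.

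The other 6 CpGs of this kind gave the same picture on different numbers of reads. With the minus strand higher, the means over pools of the lower and the higher strand were 1.58% and 97.3% at DS562890.1 position 3600902, 1.73% and 97.2% at DS562855.1 position 66063523, and 1.03% and 98.0% at DS562856.1 position 32586302. With the plus strand higher, they were 1.497% and 96.0% at DS562901.1 position 6611768, 0.509% and 95.8% at DS563249.1 position 24083, and 2.48% and 97.3% at DS563235.1 position 68603. At DS563235.1 the higher strand held 413 to 594 reads per pool and the lower strand 49 to 73, whereas at DS563249.1 the lower strand held more reads (131 to 179 against 42 to 51). Other cytosines of the same strand within 100 bp of these 8 lower strands had mean levels from 72.9% to 97.5%, so that each low value stood beside highly methylated cytosines of its own strand.

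At the limit of the choice, DS562977.1 position 139688 (smallest strand difference 40 points) and DS562860.1 position 47027607 (40.1 points) lay just inside. Just outside were DS563075.1 position 458106 (39.99 points) and DS563074.1 position 494525 (39.95 points), where the plus strand was at 42.2% to 54.6% and 35.0% to 39.0% and the minus strand at 90.7% to 94.6% and 75.6% to 83.5%. The 2 inside CpGs differed from each other in level, since the lower strand averaged 1.05% at the former and 50.6% at the latter.

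Reads were also unequally divided between the strands, a measure that the choice of CpGs did not use beyond the minimum of 30. Over the 294 CpGs, a median of 65.4% of the reads (quartiles 49.5% and 76.6%) came from the lower strand, and 218 CpGs (74.1%) had more reads there than on the higher strand. The lower strand held more than 50% of the reads in all 4 pools at 201 CpGs and less than 50% in all 4 pools at 61. The medians of the 4 pools lay between 65.2% and 66.8%. Among covered CpGs whose strands differed in 1 direction in every pool, the median share of reads on the lower strand was 51.4% where the smallest difference was under 10 points (63134 CpGs), 61.1% from 10 to 20 points (1698 CpGs), 66.9% from 20 to 30 points (439 CpGs) and 62.4% from 30 to 40 points (160 CpGs). An unequal division of reads was thus present in all bins from 10 points upward.

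**Figure D3:**
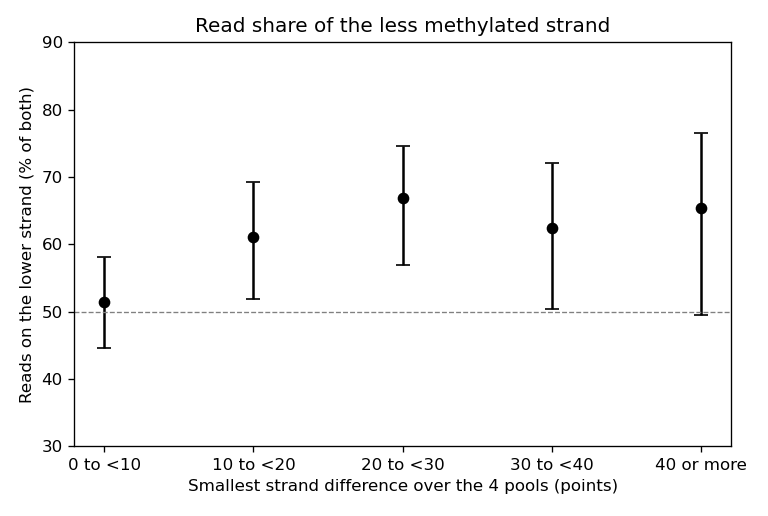
Share of a CpG's reads that came from the lower strand (%), as the median (point) and quartiles (bars), in bins of the smallest strand difference over the 4 pools (points). The median rises from 51.4% in the first bin to between 61.1% and 66.9% in the others, and the last bin holds the 294 CpGs.

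The unequal division of reads was present at every lower-strand level. More reads fell on the lower strand at 114 of the 130 CpGs with a lower strand at 30% or more (median share 66.8%), at 50 of the 78 CpGs from 10% to 30% (66.5%) and at 54 of the 86 CpGs under 10% (60.4%). Depth was also high at some of the CpGs. At 39 (13.3%) at least 1 strand had over 1000 reads in a pool, against 0.236% of the covered CpGs. These 39 had a median of 89.2% of their reads on the lower strand, and the other 255 had 63.9%, with 187 of the 255 above 50%. The part of read depth in the strand differences was not tested.

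The CpGs were spread over 131 scaffolds. DS563782.1 held 16 of the 294 among its 458 covered CpGs (3.49%), all 16 among the 39 deeply read ones. DS563245.1 held 8 of 203 (3.94%) and DS563392.1 held 5 of 69. The large scaffolds DS562859.1, DS562856.1 and DS562855.1 held 15, 11 and 8, out of 8988, 9397 and 9531 covered CpGs.

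As far as covered CpGs show, strand differences were mostly limited to single CpGs, and the exceptions were short. CpGs without enough reads on both strands could not enter, so the true extent of a difference is not known. With neighbours taken as other covered CpGs within 100 bp, 255 of the 294 had at least 1 and formed 1130 pairs with them. A pair of 2 CpGs of the 294 was counted from each of them, which holds for 148 of the 1130. The neighbour's strand difference had a median size of 2.20 points (1.28 points over adjacent covered CpGs) and the same sign in 58.6% of pairs (54.6% over adjacent covered CpGs). In the 982 pairs with a neighbour that was not itself among the 294, the median was 1.71 points and 88.2% were under 10 points. A neighbour with at least 40 points in the same direction occurred in 127 pairs and 1 with at least 40 points in the opposite direction in 46.

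Distance divided these pairs. A same-direction difference of 40 points or more was present in 45 of 198 pairs at 2 to 10 bp (22.7%), in 43 of 283 pairs at 11 to 25 bp (15.2%), in 33 of 311 pairs at 26 to 50 bp (10.6%) and in 6 of 338 pairs at 51 to 100 bp (1.78%). Opposite differences of that size numbered 8, 6, 9 and 23 in the same bins, so that beyond 50 bp they outnumbered the same-direction ones. The reads were up to 75 bases long, and pairs closer than a read length can share molecules.

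**Figure D4:**
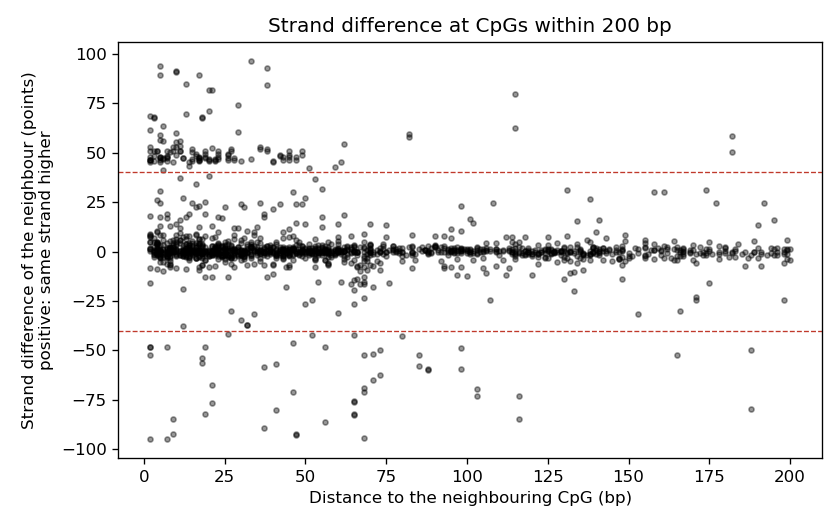
Strand difference of neighbouring covered CpGs (percentage points, positive where the same strand is higher as at the CpG itself) against distance (bp) for all pairs within 200 bp of the 294 CpGs, with dashed lines at 40 points in each direction. Most points lie near 0 at all distances, and a cluster near 50 points reaches out to about 50 bp.

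Joined where gaps were at most 200 bp, the 294 CpGs formed 239 runs, of which 200 were single CpGs and 39 held 94 CpGs: 29 runs of 2, 6 of 3, 2 of 4 and 2 of 5. At 36 of the 294, no other covered CpG lay within 200 bp, so these could only be single. In 21 of the 39 runs with more than 1 CpG, all CpGs had the same strand higher. The lower strand had a median of 33.3% in runs and 21.9% at single CpGs, and the median share of reads on the lower strand was 69.6% and 64.3%.

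The values of 3 of the longest runs are given as means over the CpGs of the run, which do not show the spread within it. At DS562867.1 from 39134002 to 39134048, the 5 covered CpGs of a 47 bp stretch all had a higher minus strand. Their mean lower-strand level was 47.7% in the hippocampus sGC pool, 50.3% in the hippocampus Con pool, 48.4% in the blood sGC pool and 49.0% in the blood Con pool, and their mean higher-strand level was 94.8% to 96.4%. The plus strand held 61.1% of the reads there. At DS563036.1 from 1329888 to 1329938, 5 of 6 covered CpGs were among the 294, again with a higher minus strand, a lower strand at 52.5%, 49.0%, 45.1% and 42.4% in the same order of pools, a higher strand at 95.8% to 97.8% and 69.7% of the reads on the lower strand. At DS562907.1 from 8983301 to 8983340, 4 CpGs in 40 bp had lower-strand means of 46.5%, 43.3%, 42.2% and 41.8%, higher-strand means of 93.6% to 95.8% and 79.2% of the reads on the lower strand. None of the CpGs of these 3 runs was called between exposures in either tissue by the Fisher test described below.

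Levels of other cytosines on the same strand showed which strand stood apart from its surroundings. Lower and higher were set by the choice of CpGs, so these distances are a description. For 288 CpGs, other cytosines of the lower strand with at least 30 reads in all pools lay within 100 bp. Their mean level had a median of 81.2%, and the lower strand lay below it by at least 40 points at 177 CpGs (61.5%) and within 10 points of it at 52. For 286 CpGs the same was known for the higher strand, where neighbours had a median of 90.5%, the CpG lay within 10 points at 189 (66.1%) and above by at least 40 points at 45. For comparison, 83.5% and 83.2% of the covered CpGs lay within 10 points of their neighbours on their lower and higher strand, and 0.390% had a lower strand at least 40 points below.

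The strand that stood apart was not the same everywhere. At 136 CpGs, the lower strand was at least 40 points below its neighbours while the higher strand was within 10 points of its own, and at 33 the higher strand was at least 40 points above its neighbours while the lower strand was within 10 points. Of the 281 CpGs with neighbours on both strands, the lower strand was the one farther from its surroundings at 226 and the higher strand at 55. The 177 CpGs with a lower strand far below its neighbours had a median of 61.6% of reads on the lower strand, and 14 of them were deeply read (over 1000 reads). The 45 with a higher strand far above its neighbours had a median of 85.9%, and 23 of them were deeply read. The latter had a median lower strand at 13.8% and a median higher strand at 90.9%, and 18 were in runs.

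DS563392.1 and DS563782.1 gave examples with a higher strand far above its neighbours. At DS563392.1 position 4523, the minus strand was at 10.5% of 2848 reads in the hippocampus sGC pool, 18.8% of 3561 reads in the hippocampus Con pool, 7.05% of 3630 reads in the blood sGC pool and 18.8% of 2908 reads in the blood Con pool. Its plus strand was at 94.9% to 97.6% on 432 to 721 reads, next to plus-strand cytosines with a mean of 13.0%. At DS563392.1 position 4458, 65 bp before it, the direction was opposite: the plus strand was at 13.2%, 18.8%, 10.6% and 19.0% on 5079 to 6106 reads and the minus strand at 95.2% to 98.2% on 209 to 349 reads.

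The comparison of exposures was made by strand. The choice of CpGs did not use it, but the need to pass the strand limit in every pool restricts how far the pools of a CpG can differ. A cytosine was called where a two-sided Fisher exact test on the methylated and unmethylated reads of the sGC and the Con pool had a Benjamini-Hochberg adjusted p under 0.05 over all cytosines listed for the tissue and the levels differed by at least 5 points. The test compares pools of reads and not animals. In hippocampus, the lower strand was called at 9 of the 294 CpGs (3.06%; 2 higher and 7 lower with sGC) and the higher strand at 0, where 0.112% of all listed cytosines (0.0729% higher and 0.0391% lower with sGC) and 0.159% of the covered ones were called. In blood, the lower strand was called at 21 (7.14%; 5 higher and 16 lower with sGC) and the higher strand at 0, against 0.317% of all listed (0.192% higher and 0.125% lower with sGC) and 0.494% of the covered cytosines. At an unadjusted Fisher p under 0.05, the higher strand counted 17 CpGs in hippocampus and 21 in blood (5.78% and 7.14%, with 6.28% and 7.16% for the covered CpGs), and the lower strand counted 54 and 53 (18.4% and 18.0%, with 6.58% and 7.76%).

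Depth moved with these calls. The lower strand had medians of 190, 161, 180.5 and 143 reads in the hippocampus sGC, hippocampus Con, blood sGC and blood Con pools, where the higher strand had 115.5, 100.5, 111.5 and 89.5 and covered cytosines had 118, 107, 124 and 97. Without the 39 deeply read CpGs, 5 calls were left in hippocampus and 7 in blood, out of 255 CpGs. Of the 849872 covered cytosines, 1350 (0.159%) were called in hippocampus and 4198 (0.494%) in blood. Only 106 and 373 of these calls were among the 2008 cytosines of deeply read CpGs. Leaving those out thus changes the share of the covered cytosines little. Of all cytosines of covered CpGs with over 1000 reads in a pool, 5.28% were called in hippocampus and 18.6% in blood.

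Counted by level, the calls lay mostly on lower strands between 10% and 30%, with 7 in hippocampus and 14 in blood. Lower strands under 10% had 0 and 4 calls, and those at 30% or more had 2 and 3. Of the 39 deeply read CpGs, 23 had a lower strand from 10% to 30%, 10 under 10% and 6 at 30% or more. The deeply read CpGs of DS563782.1 alone gave 2 of the calls in hippocampus and 11 in blood. Level, depth and scaffold were therefore not separated in these counts. The median size of the difference between sGC and Con on the lower strand was 1.15 points in hippocampus and 1.35 in blood for CpGs under 10%, 4.29 and 5.27 from 10% to 30%, and 3.63 and 4.10 at 30% or more. Over all 294 CpGs it was 2.75 and 2.99 points on the lower strand and 2.48 and 2.38 on the higher strand. The covered CpGs had 2.42 points on both strands in hippocampus, and 2.34 and 2.33 in blood. The difference ranged from -44.6 to 27.3 points on the lower strand in hippocampus and from -41.1 to 23.3 in blood, and from -19.0 to 23.2 and from -20.3 to 17.6 on the higher strand.

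No CpG of the 294 had a sGC less Con difference that was shown to differ between its strands. A z test on the difference of the log odds ratios of the strands (0.5 added to each count), adjusted over the 424936 covered CpGs, called 0 of the 294 in hippocampus and 0 in blood, with 0.00259% and 0.00612% of the covered CpGs called. The smallest adjusted p of the 294 was 0.992 in hippocampus and 0.138 in blood. At an unadjusted z test p under 0.05 there were 11 in hippocampus (3.74%, with 4.05% for the covered CpGs) and 24 in blood (8.16%, with 3.59%). The calls on the lower strand and their lack on the higher strand thus do not show that the difference between exposures depended on the strand. The lack of z test calls does not show equal differences either. At DS562969.1 position 3612558 in hippocampus, the difference was -40.8 points on the lower and -1.10 on the higher strand. The adjusted z test p there was 0.992.

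The differences between exposures in the 2 tissues were set side by side for each strand. Across the 294 CpGs, the sGC less Con difference in hippocampus and in blood had a Pearson r of 0.466 and a Spearman rho of 0.309 on the lower strand, with the same sign at 177 CpGs (60.2%), and an r of 0.0268 with the same sign at 154 (52.4%) on the higher strand. Over the covered CpGs, r was 0.194 on the lower and 0.178 on the higher strand, with a rho of 0.135 and 0.122 and the same sign at 53.8% and 53.0%. The lower-strand r was 0.484 over the 255 CpGs without the deeply read ones and 0.456 over the first CpG of each of the 239 runs. By rank the relation was weaker in both, with a rho of 0.274 and 0.297. The sign was the same at 57.6% of the 255 and at 60.7% of the 239. The points share the 4 pools, the same animals gave both tissues, and CpGs of a run can share reads, so these values describe the CpGs and no test was made. The change in the division of reads also moved with the lower-strand difference: the sGC less Con difference of log2 reads of the higher over the lower strand had an r of 0.158 with it in hippocampus and 0.349 in blood, against -0.00807 and -0.0112 over the covered CpGs. Its part in the differences was not tested.

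**Figure D5:**
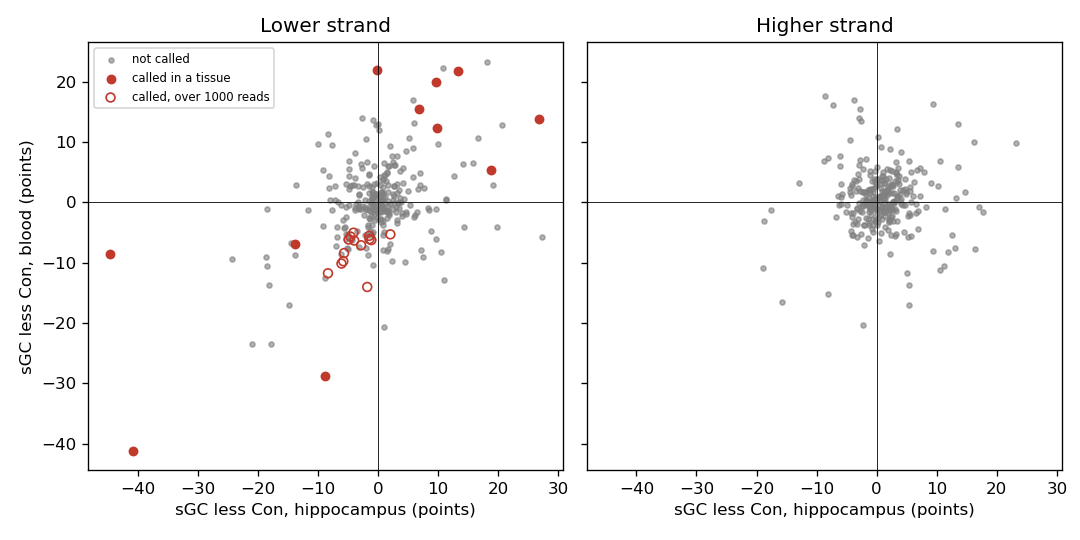
sGC less Con difference (percentage points) in blood against hippocampus for the lower strand (left) and the higher strand (right) of the 294 CpGs, with called CpGs in red (open where over 1000 reads). On the lower strand, 10 of the 11 called points with up to 1000 reads lie in the quadrants where both tissues have the same sign, the open points cluster below 0, and the higher strand has no called point.

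The CpG with the largest difference called in both tissues was DS562969.1 position 3612558. Its minus strand was at 8.33% of 60 reads in the hippocampus sGC pool, 49.2% of 61 reads in the hippocampus Con pool, 8.86% of 79 reads in the blood sGC pool and 50% of 46 reads in the blood Con pool. The 2 pools of sGC animals and the 2 pools of Con animals each had nearly the same value in both tissues, and the 95% Wilson intervals of the exposures (3.61% to 18.1% against 37.1% to 61.4% in hippocampus, 4.36% to 17.2% against 36.1% to 63.9% in blood) did not overlap. The sGC less Con difference was -40.8 points in hippocampus (Fisher test, adjusted p = 0.00128) and -41.1 points in blood (adjusted p = 0.000518). The plus strand of the CpG was at 97.0%, 98.1%, 98.1% and 95.9% on 49 to 67 reads, and other minus-strand cytosines within 100 bp averaged 82.9%. Both calls were lost when the chi-square was divided by the inflation of the statistic over all cytosines (adjusted p = 0.363 and 0.102). The intervals cover counting error only, and differences between the genomes of the 2 sets of animals cannot be told apart from exposure in these pools.

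In both tissues, on the same strand and in the same direction, 5 CpGs were called, all on the lower strand and all lower with sGC, and the other 4 were deeply read. Called in both tissues in 1 direction were 0.0496% of the cytosines listed in both tables (0.0252% lower in both), 0.0571% of the covered cytosines (0.0273% lower) and 3.98% of those of covered CpGs with over 1000 reads (3.14% lower). At DS563392.1 position 4523, the difference was -8.32 points in hippocampus and -11.8 in blood (adjusted Fisher p = 2.20e-16 and 2.14e-42), and at DS563392.1 position 4458 it was -5.64 and -8.41 points (3.05e-12 and 6.84e-32). At DS563782.1 position 6002, the minus strand was at 19.5% and 25.6% in the sGC and Con pools of hippocampus and at 14.04% and 24.2% in those of blood, on 4883 to 6968 reads, with differences of -6.07 and -10.2 points (2.13e-12 and 6.45e-40). At DS563782.1 position 1300, the plus strand was at 23.9% and 29.7% and at 22.3% and 32.1%, on 5305 to 6672 reads, with differences of -5.77 and -9.77 points (5.54e-09 and 7.78e-29). These 4 calls held under the division by the inflation in both tissues. The inflation was taken over all listed cytosines, whose median was 79 to 98 reads per pool. These 4 lower strands held far more reads, so the division does not cover the spread between animals at their depth.

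Apart from the deeply read CpGs, 11 were called in at least 1 tissue, and at 10 of them the lower strand differed in the same direction in the other tissue. They were picked after their values were seen, and 1 of them is DS562969.1 position 3612558, given above. How often called cytosines of other covered CpGs kept their direction across tissues was not counted. On the lower strands of all covered CpGs, called or not, the direction matched in 53.8%. That share is no measure for called cytosines, so the 10 of 11 are not shown to be particular to these CpGs. Higher with sGC in the called tissue were 7 of the 11. At DS562887.1 position 16359741, the minus strand was at 26.7% of 86 reads in the hippocampus sGC pool and 0 of 57 reads in the Con pool (which allows up to 5.26%), a difference of 26.7 points (adjusted Fisher p = 0.00419), and at 13.8% of 65 reads and 0 of 63 reads (up to 4.76%) in blood, where the difference was not called (0.277). At DS562886.1 position 24207700, called in blood only, the minus strand was at 8.0% of 113 reads, 1.2% of 86 reads, 15.4% of 117 reads and 0 of 101 reads (up to 2.97%) in the hippocampus sGC, hippocampus Con, blood sGC and blood Con pools. At DS562874.1 position 33283632, also called in blood, the plus strand was at 32.6%, 19.2%, 35.9% and 14.2% on 146 to 178 reads. In each of these 3 CpGs the sGC pool was above the Con pool in both tissues. The same held at DS562864.1 position 8622374 (9.78 points in hippocampus and 12.2 in blood, called in blood), DS562968.1 position 1721864 (9.70 and 19.9, called in blood) and DS562956.1 position 2221723 (18.9 and 5.39, called in hippocampus). DS564474.1 position 10537 was the CpG with opposite signs, at -0.230 points in hippocampus and 22.0 in blood, where it was called.

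Of the same 11, DS562860.1 position 16465312 had the largest difference in hippocampus. Its minus strand was at 6.82% of 44 reads in the hippocampus sGC pool and 51.4% of 35 reads in the hippocampus Con pool, and at 16.4% of 67 reads and 25% of 52 reads in blood. The difference was -44.6 points in hippocampus (adjusted Fisher p = 0.0111) and -8.58 in blood (1.00). The tissues' differences were not shown to differ there (z test on the log odds ratios of the tissues, adjusted over the cytosines of both tables, with an adjusted p of 0.978). At DS563049.1 position 538802, the plus strand was at 32.0%, 40.8%, 15.7% and 44.4% in the order of pools used above, on 100 to 130 reads, and was called in blood (-28.7 points, adjusted Fisher p = 0.00454). At DS563002.1 position 1421892 the difference was -13.9 points in hippocampus, where it was called, and -6.85 in blood. None of the calls with up to 1000 reads held under the division by the inflation, in hippocampus or in blood.

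Blood and hippocampus were called different at a smaller share of these CpGs than of all cytosines tested, and the need for a strand difference in both tissues bears on this. By the Fisher test adjusted over the 2564116 cytosines of both tables, with at least 5 points, blood and hippocampus differed in the Con pools on the lower strand at 21 of the 294 CpGs (7.14%; 15 higher in blood) and on the higher strand at 30 (10.2%; 26 higher in blood), where 20.6% of the tested (16% higher and 4.64% lower in blood) and 23.9% of the covered cytosines were called. In the sGC pools the counts were 13 (4.42%; 8 higher in blood) and 35 (11.9%; 27 higher in blood), against 22.1% (16.7% higher and 5.4% lower in blood) and 26%. The median size of the difference was 2.89 points on the lower strand and 3.27 on the higher strand in the Con pools, and 2.80 and 3.15 in the sGC pools. The covered CpGs had 4.5 and 4.304 in the Con pools and 4.19 and 4.01 in the sGC pools. On the lower strand, the medians between tissues (2.80 and 2.89 points) and between exposures (2.75 and 2.99) were thus of like size. Over the covered CpGs, the median between tissues of the same animals was the larger one. Counting error adds to all these medians and was not taken out. Medians of like size therefore do not show that tissues and exposures differed equally.

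The scaffold DS563782.1 held more of the calls than any other. Its 16 CpGs lay from position 1112 to 13510, 7 with a higher plus strand, with a median lower strand at 18.6% (6.71% to 34.3%), a median higher strand at 92.5% and a median of 94.0% of reads on the lower strand. The most reads of a strand and pool were 1115 to 20988 per CpG. Lower-strand methylation was below Con with sGC at 16 of 16 in blood (median difference -5.75 points, 11 called) and at 14 of 16 in hippocampus (median -1.73 points, 2 called), and the calls were all lower with sGC. The higher strand was below Con at 8 of 16 in blood and at 7 of 16 in hippocampus, with medians of 0.307 and 0.184 points. The other 442 covered CpGs of the scaffold were low on both strands (median 12.9%, with a median strand difference of 1.53 points and 6234 reads per strand and pool). Over their 884 cytosines, the sGC less Con difference had a median of -3.67 points in blood, with 90.7% below 0, and -1.74 points in hippocampus, with 84.4% below 0. Of these 884, 28.4% were called lower with sGC in blood and 3.96% in hippocampus. On this scaffold, the lower differences with sGC were thus also present at cytosines outside the 16 CpGs.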

How the data were processed

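RRBS was measured in 24 samples, hippocampus and blood of 12 animals. The authors trimmed single-end reads with Trim Galore and NuGEN's MspI-signature script, aligned them with Bismark 0.16.0 (submitters' processing notes), sorted them with SAMtools 1.7 and used MethPipe. The deposited tables, 1 per tissue, hold methylated counts and total reads (coverage) per cytosine and strand, summed over the 6 animals of a group and not normalized, with at least 10 reads. They also hold an FDR column of the authors' own comparison, which was not used. Summed reads per pool were 302474482, 273684449, 323883199 and 269116901 (hippocampus sGC and Con, blood sGC and Con). A read counts at each CpG it covers.

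Samples were grouped by the labels. The labels and methods name separate animals, but sums hide them, so the Fisher test measures only counting error and its p-values are too small where animals differ. Levels have 95% Wilson intervals, and a count of 0 allows up to 3 reads. These also cover counting error only. CpGs, and the gene lists that were not used for lack of an annotation of cavPor3, were chosen with earlier results of these data known. CpGs named were the 4 per direction with the largest smallest strand difference, up to 6 called in both tissues in 1 direction (5 existed), 2 on each side of the limit and the 3 runs with most CpGs (ties by position). The CpGs called in at least 1 tissue with up to 1000 reads were added after their values were seen. Cytosines in the supplement's complete list of sites common to both tissues were also to be named, and there were 0 of these. Tests were checked on simulated reads that had counting error only and no spread between animals. For the z test between strands, both simulated strands started from the same level and none was deeply read, unlike these CpGs. The check therefore does not give error rates for these pools. Scripts ran in Python 3.11.15 (scipy 1.17.1, numpy 2.4.6, numba 0.67.0, pandas 2.3.3; figures by matplotlib 3.10.9). The limit of 1000 reads, the levels of 10% and 30% and the test between tissues' differences were chosen after seeing the data. Alternatives changed read minimum, strand limit, pools, minimum difference, test, adjustment, constant and window.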

Additional observations from a re-analysis of the deposited data

Results flagged for a closer look

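At 7 CpGs, all on DS563782.1 and all on the lower strand, the sGC less Con difference differed between hippocampus and blood by a z test on the log odds ratios (0.5 added to each count), adjusted over the 2564116 cytosines of both tables. This test was added after the values were seen, and it compares pools of reads and not animals. The differences in hippocampus and blood were -1.40 and -6.09 points at position 1112 (with an adjusted p of 1.68e-05), -0.787 and -4.90 at 1742 (0.0496), -2.80 and -7.12 at 2600 (0.0487), and -3.95 and -6.34 at 4844 (0.000597). They were -6.07 and -10.2 points at position 6002 (with an adjusted p of 0.00787), -1.78 and -14.03 at 6023 (1.70e-07), and 2.07 and -5.31 at 12254 (0.000516). The higher strand passed this test at 0 of the 294 CpGs. Of all cytosines tested, 265 passed. The 7 CpGs are deeply read. How many other deeply read cytosines, or other cytosines of DS563782.1, passed was not counted, and no division by the inflation was made here. The 7 are therefore not shown to be particular to the CpGs with strongly unequal strands.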

How the results depend on the processing

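The number of CpGs with strongly unequal strands was 472 with 20 reads per strand and pool, 183 with 50 and 83 with 100, and 454 past 30 points and 156 past 50, instead of 294. Calls between exposures fell from 9 in hippocampus to 5 at a minimum of 10 points, 4 with the chi-square divided by its inflation factor (1.76), 5 with 50 reads and 5 without CpGs over 1000 reads. In blood they fell from 21 to 10 at 10 points, 13 with the division (factor 1.73) and 7 without CpGs over 1000 reads. With 50 reads, 33 of the 51 calls between tissues in Con pools and 30 of the 48 in sGC pools were left, and the higher-strand median between exposures in blood was 2.00 points. Past 50 points, the lower-strand median was 1.94 points between exposures in hippocampus and 2.02 between tissues in Con pools. Read minimum, strand limit and leaving out deep CpGs change the CpGs counted by construction, and the cause of the other changes was not tested. The other 44 comparisons stayed within 1.5 times the main count or within its spread. Of the CpGs called in both tissues, only DS562969.1 position 3612558 (-40.8 and -41.1 points) lost its calls with the division. The others are deeply read, and the factor was not fitted to their depth. No paired analysis was possible because the tables hold only sums over the 6 animals of each group, and for the same reason no animal could be left out in turn. Coverage near 30 reads leaves wide intervals on single levels, as the intervals at DS562969.1 show.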
